A study of Mus musculus with 50 samples.

Results

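AMPA receptors carry auxiliary subunits that travel with the pore and set how the channel traffics and gates, and the 9 genes described here encode those outside the Shisa family: *Cacng2*, *Cacng3*, *Cacng4*, *Cacng5*, *Cacng7*, *Cacng8*, *Cnih2*, *Cnih3* and *Gsg1l*. They were chosen by gene symbol from the 24552 genes listed in the deposited counts, with earlier results of these data known. All 9 passed the filter on low counts in every model. RNA came from the nucleus accumbens (NAc) of C57BL/6 mice carrying RiboTag (RT), an HA-tagged form of the ribosomal protein Rpl22 that is switched on in Cre-expressing cells. Immunoprecipitation (IP) of the tagged ribosomes was made from RT; D1-Cre mice (13 libraries, D1-IPs: 4 Con, 4 Res, 5 Sus) and from RT; D2-Cre mice (15 libraries, D2-IPs: 5 of each). Total RNA saved from the homogenates gave 18 inputs, 3 for each line and stress group. The tag, the Cre drivers (BAC transgenic lines FK150 for D1 and ER44 for D2) and the pooling of 2 mice per library were shared by controls and stressed mice. Con mice were not defeated, and Res (resilient) and Sus (susceptible) mice were sorted by social interaction 24 h after up to 10 days of chronic social defeat stress (CSDS). These mice were 8 to 12 weeks old. A further 4 D1-IPs, from undefeated male RT; Sirt1-floxed; D1-Cre mice, are labelled Sirt1-KO and numbered 1, 3, 4 and 5; no age is given for them. Depth ran from 21591075 to 31009626 counts on genes in the 28 IPs, from 18384265 to 28179940 in the inputs and from 22174187 to 31785984 in the Sirt1-KO libraries, and each member had between 344 and 5195 counts in every IP and input library. In the D1-IPs the D1-MSN markers (*Drd1*, *Pdyn*, *Tac1*, *Chrm4*) summed to 1101 to 1553 CPM against 396 to 638 in D2-IPs, and the D2-MSN markers (*Drd2*, *Adora2a*, *Penk*, *Gpr6*) to 2061 to 3470 against 5646 to 7998, so each set was higher in its own line and present in the other. Cholinergic interneuron markers summed to 7.73 to 30.6 CPM in D1-IPs and 62.7 to 135 in D2-IPs.

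The AMPA receptor is a tetramer of GluA subunits (*Gria1* to *Gria4*) that carries most fast excitatory transmission. The transmembrane AMPA receptor regulatory proteins (TARPs) bind the pore and modify its trafficking and gating, and those of type I also anchor it at the synapse through postsynaptic scaffolds. The 4 type I TARPs are *Cacng2* (stargazin, γ-2), *Cacng3* (γ-3), *Cacng4* (γ-4) and *Cacng8* (γ-8), and the 2 type II TARPs are *Cacng5* (γ-5) and *Cacng7* (γ-7). The cornichon homologs *Cnih2* and *Cnih3* assist export of the receptor from the endoplasmic reticulum and slow its gating, and *Gsg1l*, a more distant claudin-like relative of the TARPs, restrains receptor currents. In medium spiny neurons (MSNs), which make up most NAc neurons and express dopamine D1 or D2 receptors, these proteins act at the glutamatergic synapses from cortex, hippocampus, amygdala and thalamus.

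In GENCODE vM21 on GRCm38 (the assembly also called mm10), 4 members lie in TARP clusters. *Cacng4* (chr11:107732357-107794557, minus strand) and *Cacng5* (chr11:107874605-107915055, minus strand) are 80.05 kb apart, and *Cacng7* (chr7:3332955-3368221, plus strand) and *Cacng8* (chr7:3390683-3415648, plus strand) are 22.46 kb apart. *Cacng3* (chr7:122670492-122769393, plus strand) and *Gsg1l* (chr7:125878420-126082411, minus strand) lie elsewhere on the same chromosome as the latter pair. *Cnih3* lies at chr1:181352628-181460641 on the plus strand, *Cnih2* at chr19:5092868-5098521 on the minus strand and *Cacng2* at chr15:77991748-78120028 on the minus strand. Exons of *Cacng2* overlap an antisense transcript, those of *Cnih2* overlap *Yif1a* on the opposite strand and those of *Cacng8* hold a miRNA on the same strand. Since the strand setting of the counting is not stated, reads of these 3 genes cannot be fully told apart from those of their partners.

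The sequence just before the start of transcription was available for 7 of the 9 members from RefSeq (GRCm38.p6, the 250 bases before each start). The 3 whose RefSeq start coincides with the GENCODE start are shown because they hold the member that differed most between D1-IPs and D2-IPs (*Cnih3*), its closest relative, whose interval between the lines included 0 (*Cnih2*), and the member with the largest difference the other way (*Cacng5*). Capitals mark GC boxes (GGGCGG or CCGCCC) and the E-box CACGTG, which is its own reverse complement.
Cnih3, chr1:181352378-181352627, plus strand: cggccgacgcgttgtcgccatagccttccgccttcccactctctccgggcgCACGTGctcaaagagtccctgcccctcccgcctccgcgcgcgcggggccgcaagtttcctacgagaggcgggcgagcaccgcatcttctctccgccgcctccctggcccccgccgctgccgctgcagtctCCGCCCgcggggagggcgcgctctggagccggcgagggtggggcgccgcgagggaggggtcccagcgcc
Cnih2, chr19:5098522-5098771, minus strand: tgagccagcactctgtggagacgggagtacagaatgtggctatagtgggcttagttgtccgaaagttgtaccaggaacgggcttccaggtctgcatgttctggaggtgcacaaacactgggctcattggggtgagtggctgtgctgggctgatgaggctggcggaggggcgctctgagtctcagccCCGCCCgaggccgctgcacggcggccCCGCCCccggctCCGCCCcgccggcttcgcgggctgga
Cacng5, chr11:107915056-107915305, minus strand: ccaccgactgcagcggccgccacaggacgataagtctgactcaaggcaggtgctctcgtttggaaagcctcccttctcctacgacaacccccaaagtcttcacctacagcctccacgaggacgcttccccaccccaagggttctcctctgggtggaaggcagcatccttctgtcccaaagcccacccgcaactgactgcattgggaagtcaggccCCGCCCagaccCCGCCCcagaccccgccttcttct
The *Cnih3* sequence had 1 GC box, 1 E-box and 36 CpG dinucleotides, against a median of 6 CpG over the 32841 promoters searched, and it was 76% G or C. The *Cnih2* sequence had 3 GC boxes and 17 CpG, and the *Cacng5* sequence 2 GC boxes and 12 CpG. No TATAAA was found in any of the 3. Among all promoters of this length, 32.7% held a GC box on either strand, 6.02% the E-box and 12.4% TATAAA, so a GC box in a promoter is common, and these matches describe letters only.

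To compare genes with each other, levels were set per length, as CPM (counts divided by the TMM-scaled library size, so that libraries can be compared) per kb of exon. *Cnih2* was the most abundant member in every fraction, with 92.7 CPM per kb in D1-IPs (range 81.6 to 102), 92.7 in D2-IPs and 100.5 in inputs. In D1-IPs it was followed by *Gsg1l* (36.6), *Cacng8* (32.6), *Cacng3* (29.3), *Cnih3* (17.1), *Cacng7* (16.1), *Cacng2* (11.8), *Cacng4* (7.62) and *Cacng5* (6.33). Over the 13 D1-IPs the ranges of neighbours in this order did not overlap between *Cnih2* and *Gsg1l*, *Cacng3* and *Cnih3*, *Cacng7* and *Cacng2*, and *Cacng2* and *Cacng4*, and all other neighbours overlapped. In D2-IPs *Cnih3* was the lowest member, at 8.17 CPM per kb (6.54 to 9.66), and the ranges separated only *Cnih2* from *Gsg1l* (42.4) and *Cacng8* (31.1) from *Cacng7* (15.5). In the inputs *Cacng7* stood second at 28.5 CPM per kb, and apart from the step between *Cnih2* and *Cacng7* every neighbour overlapped. The pore subunits gave a scale: *Gria1* averaged 151 CPM per kb in D1-IPs and 164 in D2-IPs, *Gria2* 75.5 and 81.4, *Gria3* 36.5 and 33.9, and *Gria4* 14.1 and 12.5.

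Of the summed CPM per kb of the 9 members, the cornichons made up 43.8% ± 2.14 (SD, n = 13) in D1-IPs and 39.96% ± 1.98 (SD, n = 15) in D2-IPs. The type I TARPs made up 32.5% ± 1.52 and 33.7% ± 1.19, and *Gsg1l* alone 14.6% ± 1.16 and 16.8% ± 1.05. The type II TARPs held the rest, with 8.98% in D1-IPs and 9.56% in D2-IPs, but 14.6% and 14.8% in the inputs of the same lines. The balance between near relatives differed more than these class shares: the ratio of *Cnih2* to *Cnih3* (CPM per kb) ran from 3.69 to 6.99 in D1-IPs and from 9.74 to 12.998 in D2-IPs, ranges that did not overlap. The ratio of *Cacng7* to *Cacng5* ran from 1.94 to 3.38 in D1-IPs, from 1.44 to 2.45 in D2-IPs and from 4.19 to 7.01 in inputs, which put each input above every IP.

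**Figure D1:**
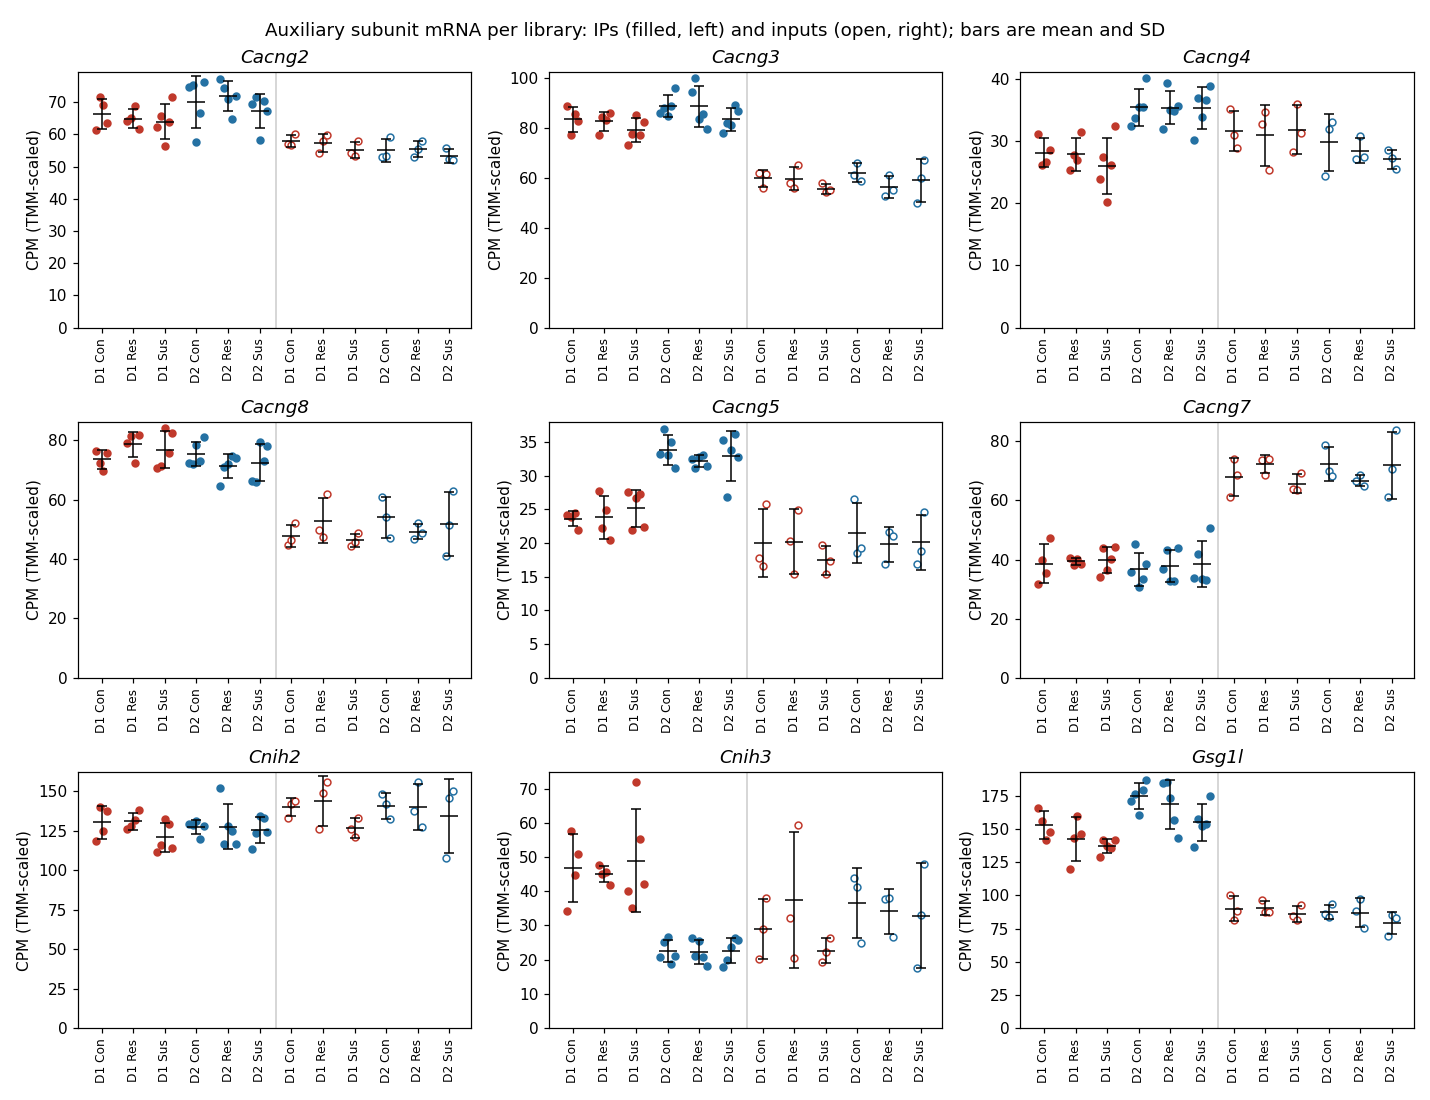
CPM (linear axes from 0) of each member in every library, with filled points for IPs and open points for inputs, red for the D1 line and blue for the D2 line; black bars give the mean and SD of each group of 3 to 5 libraries. *Cnih3* is the one member whose 13 D1-IPs all lie above all 15 D2-IPs, and *Cacng7* lies lower in every IP than in any input.

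The first comparison asked which auxiliary subunits differ between ribosome-bound RNA of D1- and D2-MSNs. *Cnih3* was 2.07-fold higher in D1-IPs (log2 fold change 1.05, SE 0.093, adjusted p = 3.7e-10 by edgeR's quasi-likelihood test over 14224 genes), and *Cacng5*, *Cacng4* and *Gsg1l* were lower in D1-IPs by 0.46, 0.39 and 0.22 on the log2 scale. *Cacng2* and *Cacng3* were lower by 0.11 and 0.10, and *Cnih2*, *Cacng7* and *Cacng8* did not pass the test. In the rule of a fold over 1.5 with an adjusted p under 0.05, 1 of 9 members (*Cnih3*) was called, against 7.66% of all genes tested. At an adjusted p under 0.05 of any size it was 6 of 9, 1 higher and 5 lower, against 40.8% of all genes. The median log2 fold change of the members was -0.10, that of all genes -0.016. The D1-IP and D2-IP ranges did not overlap for 1 of 9 members, against 2.82% of all genes.

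*Cnih3* in the D1-IPs had 34.1, 57.7, 44.8 and 50.8 CPM in Con, 47.8, 45.1, 45.5 and 41.8 in Res, and 40.2, 35.0, 72.1, 55.4 and 42.2 in Sus. In the D2-IPs it had 20.6, 25.1, 26.6, 18.8 and 21.1 CPM in Con, 26.2, 21.0, 25.5, 20.9 and 18.03 in Res, and 17.98, 19.8, 23.6, 26.2 and 25.6 in Sus. The lowest D1-IP (D1 Con 1) still lay above the highest D2-IP (D2 Con 3), and the D1-IPs varied more among themselves (coefficient of variation 21.6%) than the D2-IPs (14.2%). The difference was 1.05 in Con, 1.00 in Res and 1.10 in Sus (log2, adjusted p = 4.6e-05, 7.4e-05 and 7.7e-06), and its 95% interval for the mean of the states ran from 0.87 to 1.23. In each state *Cnih3* was the 1 member called, where 4.98%, 5.52% and 5.55% of all genes were, and 3, 4 and 3 members passed at an adjusted p under 0.05 of any size, against 14%, 17.5% and 17.6%. The relative with the same function in receptor export, *Cnih2*, had 112 to 140.3 CPM in D1-IPs (median 128) and 113 to 152 in D2-IPs (median 128), a difference of -0.0089 (95% interval -0.08 to 0.07).

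Markers of cortical excitatory neurons, which are not cells of the NAc, were measured beside this difference. None of the 7 (such as *Slc17a7*, *Neurod6* and *Tbr1*) was at 0 in any group. Their summed level was 408 to 1443 CPM in D1-IPs (median 772) and 46.1 to 323 in D2-IPs (median 207), so these groups did not overlap either, and 118 to 1135 CPM in the inputs. *Cnih3* moved with that sum: r of their log2 values was 0.83 over the 13 D1-IPs, 0.82 over the 15 D2-IPs and 0.95 over the 18 inputs, as descriptions of libraries that share a normalization. D1 Sus 3 had the highest *Cnih3* (72.1 CPM) and the highest marker sum (1443) of the D1-IPs, and D1 Con 1 had the lowest of both (34.1 and 408). The log2 marker sum was added as a covariate after the data were seen. With it the D1 to D2 difference of *Cnih3* was 0.46 (SE 0.129, adjusted p = 0.014), below the 1.5-fold rule. By state it was 0.49 in Con, 0.42 in Res and 0.48 in Sus. None of these passed (edgeR, adjusted p = 0.053, 0.11 and 0.066). In the mean of the states *Cacng5* (-0.46), *Cacng4* (-0.38) and *Gsg1l* (-0.36) kept their sign at adjusted p = 9.4e-04, 0.014 and 0.0016. Since the marker sums of D1-IPs and D2-IPs did not overlap, this covariate cannot be fully told apart from the line. The adjusted differences therefore extrapolate beyond sums that both groups share. General MSN markers (4 genes, such as *Ppp1r1b*) summed to 3051 to 4712 CPM in D1-IPs (median 3659) and 4284 to 5648 in D2-IPs (median 5136). With this MSN sum, r within D1-IPs and within D2-IPs was 0.79 and 0.48 for *Cacng4* and 0.66 and 0.87 for *Gsg1l*. For *Cacng5* it was -0.47 and 0.03. The part of the MSN sum in the D1 to D2 differences was not tested. How much of the *Cnih3* difference comes from MSNs was not tested. In bulk libraries, fewer cells of a type and less RNA per cell cannot be told apart.

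**Figure D2:**
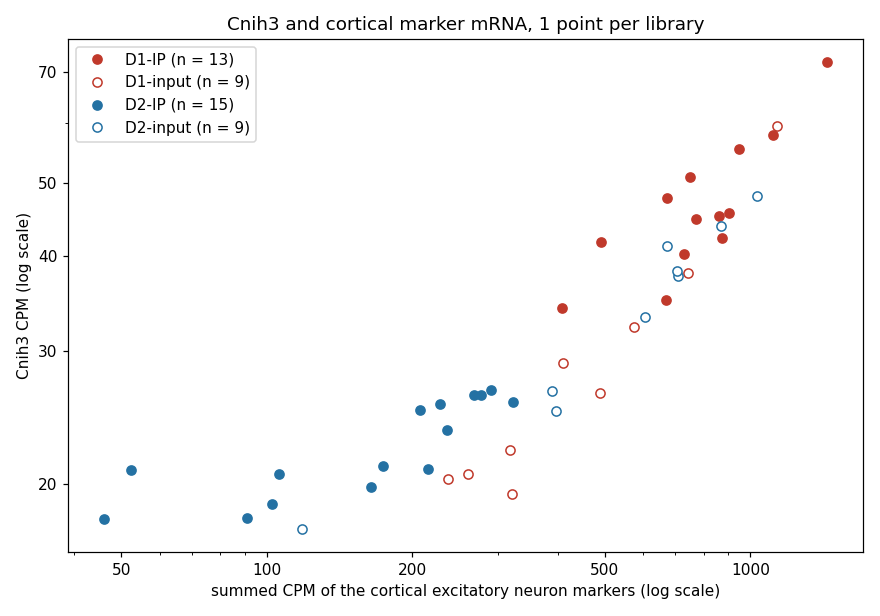
*Cnih3* CPM against the summed CPM of the 7 cortical excitatory neuron markers, 1 point per library, both axes on a log scale; filled points are IPs, open points inputs, red the D1 line and blue the D2 line. The D1-IPs lie to the upper right (34.1 to 72.1 CPM of *Cnih3*), the D2-IPs to the lower left (17.98 to 26.6), and the inputs run along a band that spans both (17.5 to 59.4).

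The members lower in D1-IPs showed smaller steps with overlapping or nearly touching ranges. *Cacng5*, a type II TARP, had 24.2, 23.8, 24.5 and 22.0 CPM in D1 Con, 27.7, 22.3, 24.9 and 20.5 in D1 Res, and 27.5, 22.0, 26.8, 27.2 and 22.3 in D1 Sus. In D2-IPs it had 33.2, 36.9, 33.1, 35.0 and 31.1 CPM in Con, 32.5, 31.1, 32.8, 33.0 and 31.5 in Res, and 35.3, 26.8, 33.9, 36.3 and 32.8 in Sus. A single D2-IP, D2 Sus 2 at 26.8 CPM, fell within the D1-IP range, and the difference held in each state (-0.53 in Con, -0.45 in Res and -0.41 in Sus, adjusted p = 7.7e-05, 0.00055 and 0.00055). *Cacng4*, its neighbour on chromosome 11 and a type I TARP, ran from 20.2 to 32.5 CPM in D1-IPs (median 26.9) and from 30.2 to 40.1 in D2-IPs (median 35.5). Its differences by state were -0.34, -0.35 and -0.46 (adjusted p = 0.017, 0.012 and 0.00066). Those of Con and Res did not pass with the cortical marker sum as a covariate (adjusted p = 0.12 and 0.11), and without 1 library they lost adjusted p under 0.05 in 3 of 9 fits (D1 Con 2, D1 Con 3 or D2 Con 5 left out) and 1 of 9 (D1 Res 1). The mean differences had SE 0.049 for *Cacng5* (adjusted p = 1.1e-08) and 0.056 for *Cacng4* (adjusted p = 2.2e-06). *Gsg1l* ran from 120.0 to 166 CPM in D1-IPs (median 142) and from 137 to 187 in D2-IPs (median 171), with a mean difference of -0.22 (SE 0.043, adjusted p = 1.6e-04); by state it passed in Res alone (-0.26, adjusted p = 0.019), with -0.21 in Con (adjusted p = 0.070) and -0.19 in Sus (adjusted p = 0.058).

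The remaining type I TARPs were close between the lines. *Cacng2* had 56.4 to 71.6 CPM in D1-IPs and 57.5 to 77.3 in D2-IPs (adjusted p = 0.040), and *Cacng3* had 73.2 to 88.7 and 77.9 to 99.9 (adjusted p = 0.020), so both pairs of ranges overlapped widely. The *Cacng2* call was lost with another size factor (adjusted p = 0.052) and in 18 of 28 fits that left out a library, and both were lost with no filter on low counts (adjusted p = 0.072 and 0.051). *Cacng8*, the TARP best known from hippocampus, had 69.7 to 84.0 and 64.5 to 81.2 CPM (log2 difference 0.05, 95% interval -0.02 to 0.12), and *Cacng7* 31.9 to 47.4 and 30.7 to 50.8 (0.04, interval -0.10 to 0.19).

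**Figure D3:**
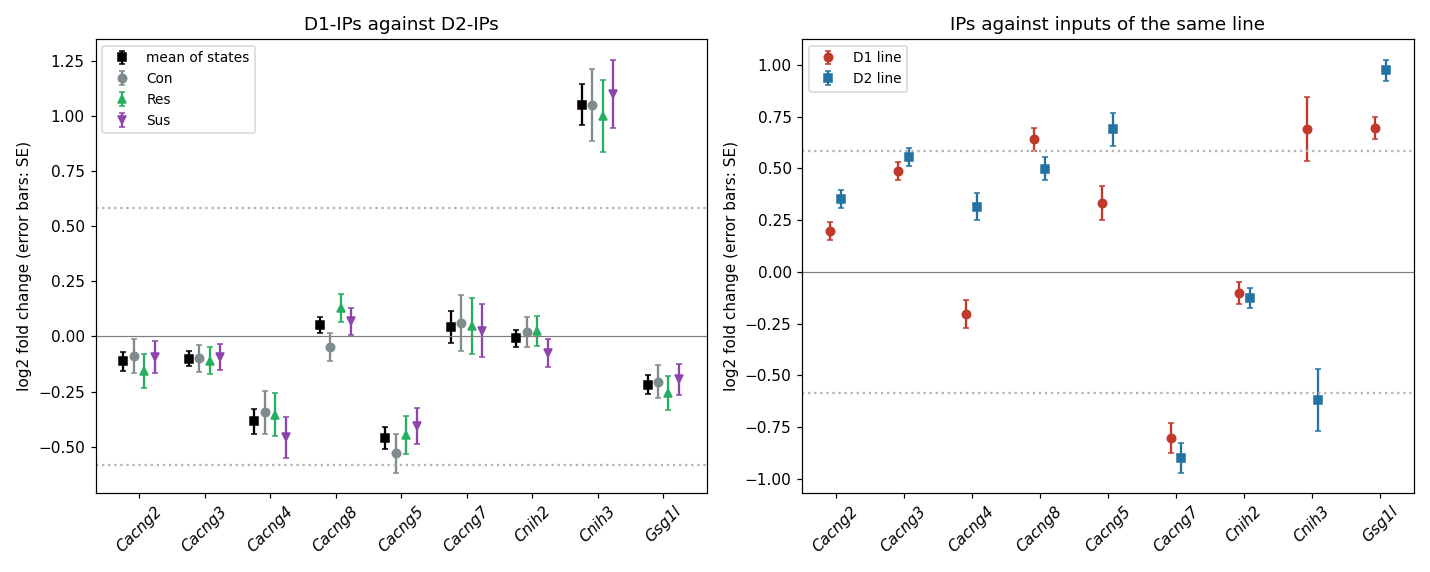
Left, log2 fold change of each member between D1-IPs and D2-IPs, for the mean of the stress states and for Con, Res and Sus; right, between IPs and inputs of the D1 line and the D2 line. Error bars are SE and dotted lines a 1.5-fold change. *Cnih3* stands near 1 in every state on the left, and on the right it is 0.69 in the D1 line and -0.62 in the D2 line.

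Of the 4 pore subunits, *Gria1* (-0.14, adjusted p = 0.0013) and *Gria2* (-0.12, adjusted p = 0.0040) were lower and *Gria4* (0.16, adjusted p = 0.0045) higher in D1-IPs, and *Gria3* had 0.09 (adjusted p = 0.071); none passed the 1.5-fold rule. Of the 31 other genes listed for receptor biogenesis, trafficking and anchoring, 12 were higher and 7 lower at an adjusted p under 0.05, and 5 were called, all higher in D1-IPs. Among the 5 were the secreted olfactomedins *Olfm2* (1.04) and *Olfm1* (1.03). The homologs not known as receptor subunits numbered 5; *Gsg1* was too low to test, and of the other 4 *Cacng6*, a calcium channel γ subunit at no more than 1.36 CPM, was called (1.35, adjusted p = 8.6e-05). Of the 4 Shisa subunits 3 passed at an adjusted p under 0.05 without reaching 1.5-fold: *Shisa6* (0.56), *Shisa7* (-0.13) and *Shisa9* (-0.13).

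Across the 28 IPs the gene whose log2 CPM was most like that of *Cnih3* was *Fjx1*, a secreted four-jointed family protein (r = 0.98), followed by *Mmp17*, a membrane-bound metalloproteinase, and *Olfm1* (both r = 0.98), and over the 18 inputs *Olfm1* was nearest (r = 0.98). The 28 IPs include the D1 to D2 difference, which all these values share. For each other member the highest r with any gene lay between 0.755 and 0.92. Among the members, *Cnih3* ran opposite to *Cacng4* (r = -0.83), *Cacng5* (-0.73) and *Gsg1l* (-0.55), and *Cacng3* and *Gsg1l* ran together (0.79), over the same 28 libraries. With each library taken as its deviation from its group mean, *Cnih3* had r = -0.40 with *Cacng4*, 0.33 with *Cacng5*, 0.10 with *Gsg1l* and 0.76 with *Cnih2*, so the opposite course to *Cacng5* and *Gsg1l* lay between the groups and not within them.

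The second comparison set the IPs against the inputs, to show which members are enriched or depleted on the tagged ribosomes relative to the whole tissue. Most members were higher in IPs: *Gsg1l* by 0.70 in the D1 line and 0.97 in the D2 line (log2), *Cacng8* by 0.64 and 0.50, *Cacng3* by 0.49 and 0.56, and *Cacng5* by 0.33 and 0.69. *Cacng7* was lower in IPs by 0.80 and 0.90. By the 1.5-fold rule 4 of 9 members were called in the D1 line (*Cacng8*, *Cnih3* and *Gsg1l* higher, *Cacng7* lower), against 43.1% of all genes, and 4 of 9 in the D2 line (*Cacng5* and *Gsg1l* higher, *Cacng7* and *Cnih3* lower), against 43.6%. At an adjusted p under 0.05 of any size it was 8 of 9 and 9 of 9, against 81.9% and 82.7%, so the counts themselves were near the background. The median of the members was 0.33 in the D1 line and 0.35 in the D2 line, that of all genes -0.041 and -0.085.

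*Gsg1l* had 120.0 to 166 CPM in D1-IPs against 81.6 to 100.4 in D1-inputs, and 137 to 187 in D2-IPs against 69.6 to 97.1 in D2-inputs. *Cacng7*, a type II TARP, had 31.9 to 47.4 against 61.1 to 74.1 CPM in the D1 line and 30.7 to 50.8 against 61.3 to 83.9 in the D2 line. Neither gene overlapped between fractions in either line, and the IP was the higher fraction of the same homogenate in 9 of 9 pairs of each line for *Gsg1l* and in 0 of 9 for *Cacng7*. Astrocyte markers (6 genes, none at 0) summed to 262 to 555 CPM in IPs and 3494 to 4244 in inputs, and *Cacng7* ran with that sum within the 15 D2-IPs (r = 0.81) and within the 18 inputs (r = 0.81), less so within the 13 D1-IPs (r = 0.44). Within the inputs r was -0.37 with the oligodendrocyte marker sum, -0.47 with that of their precursors, -0.10 with that of microglia and 0.76 with the cortical one. In the same order r was 0.67, 0.25, 0.59 and 0.22 within the D2-IPs and 0.12, 0.28, 0.30 and 0.25 within the D1-IPs. The astrocyte sum also ran with *Cnih2* (r = 0.80), *Cacng8* (0.78) and *Cnih3* (0.77) within the inputs. The part of glial RNA in the *Cacng7* values was not tested. *Cacng3* and *Cacng8* were also higher in every IP than in any input of their line (73.2 to 88.7 against 54.1 to 64.9 CPM for *Cacng3* in the D1 line, for example), and *Cacng5* in the D2 line. In all, 4 and 5 members did not overlap, against 48.3% and 44.3% of all genes.

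*Cnih3* was higher in D1-IPs than D1-inputs by 0.69 (SE 0.154, adjusted p = 9.4e-05) and lower in D2-IPs than D2-inputs by 0.62 (SE 0.148, adjusted p = 2.2e-04), with the IP higher in 8 of 9 D1 homogenates and 2 of 9 D2 homogenates. By state it was 0.69 in Con (adjusted p = 0.022), 0.27 in Res (adjusted p = 0.38) and 1.11 in Sus (adjusted p = 3.2e-04) in the D1 line, and -0.70, -0.61 and -0.54 (adjusted p = 0.014, 0.031 and 0.059) in the D2 line. The inputs spread widely: 20.3, 28.9 and 37.9 CPM in D1 Con, 32.2, 20.6 and 59.4 in D1 Res, 19.4, 22.2 and 26.4 in D1 Sus, 43.9, 41.2 and 24.96 in D2 Con, 37.6, 38.2 and 26.5 in D2 Res, and 17.5, 33.2 and 48.0 in D2 Sus. The cortical marker sum was lowest (118 CPM) in the input with 17.5 CPM of *Cnih3* and highest (1135 CPM) in the one with 59.4. With IP and input of a homogenate paired as a block, the D2 difference was -0.53 (adjusted p = 0.0025), short of 1.5-fold, and with the marker sum as a covariate it was 0.09 (adjusted p = 0.45), the opposite sign, while that of the D1 line was 0.41 (adjusted p = 8.2e-05).

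The difference between the lines in this enrichment was itself tested (D1 minus D2, 15404 genes). It was 1.31 for *Cnih3* (SE 0.213, adjusted p = 1.0e-05), the 1 member called by the 1.5-fold rule, against 7.59% of all genes. At an adjusted p under 0.05 of any size it was 4 of 9, against 25.5%, with *Cacng4* (-0.52, adjusted p = 5.3e-05), *Gsg1l* (-0.28, adjusted p = 0.0041) and *Cacng5* (-0.35, adjusted p = 0.018). *Cacng4* is the member that changed side along with *Cnih3*, in the other direction: it was lower in D1-IPs than D1-inputs (-0.20, IP higher in 1 of 9 homogenates) and higher in D2-IPs than D2-inputs (0.31, IP higher in 9 of 9). With the homogenate as a block *Cacng5* no longer passed (-0.31, adjusted p = 0.058), and with the marker sum as a covariate *Cnih3* no longer passed (0.31, adjusted p = 0.17). *Cnih2* stayed near 0 in both lines (-0.10, adjusted p = 0.064, and -0.13, adjusted p = 0.019). Of the pore subunits, *Gria1* (0.56 and 0.66), *Gria2* (0.56 and 0.69) and *Gria3* (0.69 and 0.51) were higher in the IPs of the D1 and D2 lines, whereas *Gria4* had -0.11 (adjusted p = 0.054) and -0.23 (adjusted p = 4.5e-05).

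The third question was whether CSDS changed the members in either cell type. In 6 contrasts of stress groups within a line, *Gsg1l* between Sus and Con was the only member at an unadjusted p under 0.05, lower in Sus by 0.16 in D1-IPs (SE 0.076, 1 of 9 members against 5.34% of all genes) and by 0.17 in D2-IPs (SE 0.072, 1 of 9 against 3.68%). Neither passed adjustment over all genes (adjusted p = 0.85 and 0.999), and no gene did in these contrasts. *Gsg1l* had 166, 156, 142 and 148 CPM in D1 Con, 120.0, 143, 160.1 and 146 in D1 Res, and 129, 142, 137, 136 and 142 in D1 Sus. In D2-IPs it had 171, 177, 160.5, 179.8 and 187 CPM in Con, 185, 185, 173, 157 and 143 in Res, and 137, 158, 153, 154 and 175 in Sus. Sus and Con overlapped in both lines, as they did for all 9 members (2.31% of all genes did not overlap in D1-IPs and 0.478% in D2-IPs), and the Res libraries overlapped with both, with log2 differences from Con of -0.10 in D1-IPs and -0.05 in D2-IPs.

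Averaged over the lines, a contrast added after the separate results were seen, *Gsg1l* was lower in Sus than Con by 0.17 (SE 0.052, adjusted p = 0.54, 1 of 9 members against 8.96% of all genes at an unadjusted p under 0.05). In the same contrast the general MSN markers (4 genes, such as *Ppp1r1b* and *Rgs9*) had a median of -0.12 with 2 of 4 lower at an unadjusted p under 0.05, the D2-MSN markers -0.17 with 3 of 4 lower, the astrocyte markers 0.29 with 2 of 6 higher and the cortical markers 0.29 with 0 of 7. The astrocyte marker sum ran from 330 to 471 CPM in D1 Con (median 425) and from 473 to 555 in D1 Sus (median 516). In D2 Con it ran from 276 to 405 CPM (median 352), and in D2 Sus from 262 to 525 (median 324). The MSN marker sum ran from 3629 to 4712 CPM in D1 Con and from 3051 to 3892 in D1 Sus. That MSN sum ran from 4901 to 5648 CPM in D2 Con and from 4284 to 5139 in D2 Sus. *Gsg1l* ran with this sum over the 13 D1-IPs (r = 0.66) and over the 15 D2-IPs (r = 0.87). With the D1-MSN marker sum its r was 0.48 and 0.06. The D1-MSN marker sum ran from 1258 to 1553 CPM in D1 Con and from 1101 to 1406 in D1 Sus. In the D2 line it ran from 448 to 638 CPM in Con IPs and from 396 to 603 in Sus IPs. The part of these markers in the *Gsg1l* difference was not tested. In the inputs *Gsg1l* had a Sus to Con difference of -0.10 (adjusted p = 0.98).

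**Figure D4:**
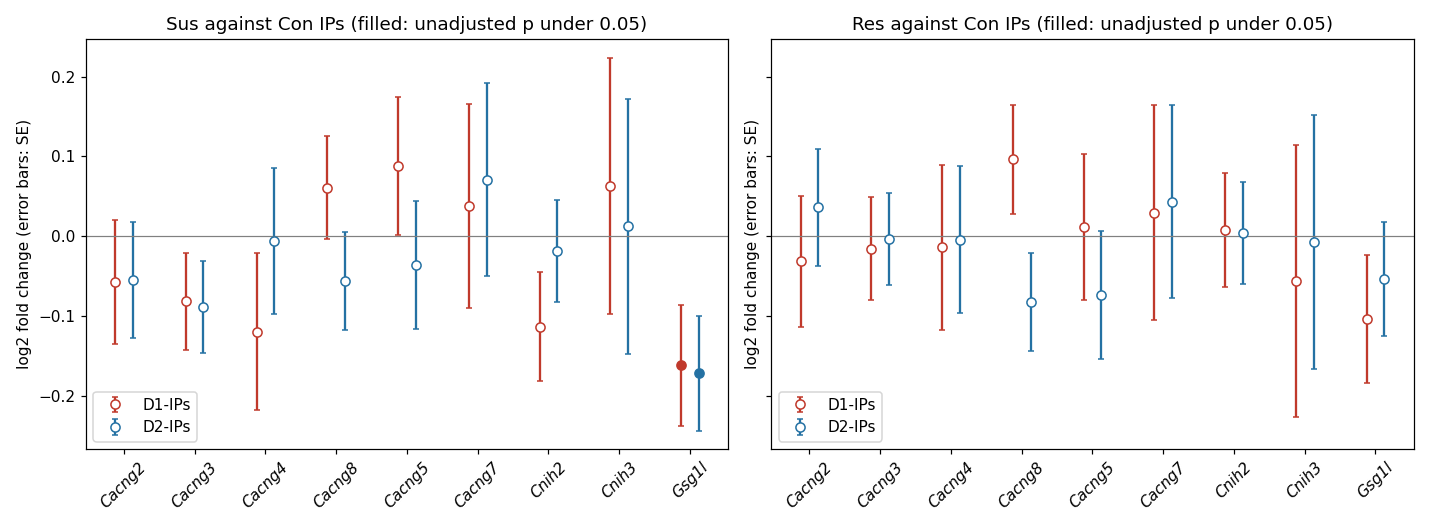
Log2 fold change of each member between Sus and Con (left) and Res and Con (right) IPs, red for D1 and blue for D2, with SE as error bars; filled points have an unadjusted p under 0.05. *Gsg1l* in Sus, at -0.16 and -0.17, holds both filled points.

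The other 8 members had Sus to Con differences between -0.12 and 0.09 in D1-IPs and between -0.09 and 0.07 in D2-IPs. *Cnih3* had 0.06 (95% interval -0.25 to 0.38) in D1-IPs and 0.01 (-0.30 to 0.33) in D2-IPs. *Cacng8* had 0.06 (-0.07 to 0.19) and -0.06 (-0.18 to 0.06). No member passed in Res against Con (2.11% of all genes in D1-IPs, with 0.00703% of all genes at an adjusted p under 0.05, and 3.02% in D2-IPs) or Sus against Res (4.23% and 1.66%). In the 3 tests of whether a stress difference itself differed between the lines, none of the members reached an unadjusted p under 0.05, where 1.82% (Sus to Con), 2.36% (Res to Con) and 2.03% (Sus to Res) of all genes did. The nearest was *Cacng8* in Res to Con (0.18, adjusted p = 0.9995). None of *Gria1* to *Gria4* passed in any stress contrast either, whereas *Shisa6* had 0.30 in D1 Sus against Con, at an unadjusted p under 0.05 (adjusted p = 0.85).

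In the inputs no member reached an unadjusted p under 0.05 in Sus against Con, Res against Con or Sus against Res, where 4.51%, 3.25% and 5.47% of all genes did, with 3 libraries per line and state. *Cnih3* had the widest interval for Sus to Con (-0.24, 95% interval -0.74 to 0.25) and *Cacng2* the narrowest (-0.05, -0.14 to 0.03). Between the inputs of the lines no member was called, against 0.0199% of all genes. *Cnih3*, 2.07-fold higher in D1-IPs than D2-IPs, was at -0.24 (95% interval -0.64 to 0.17) in the inputs of the D1 line relative to the D2 line, and *Cacng4*, lower in D1-IPs, was at 0.15 (adjusted p = 0.96).

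The last comparison set the 4 libraries labelled Sirt1-KO against the 4 D1 Con IPs. The difference in *Sirt1* itself was smaller than its SE: it had 15.2, 16.2, 13.2 and 10.2 CPM in the Sirt1-KO libraries 1, 3, 4 and 5 and 13.1, 16.6, 14.8 and 14.4 in D1 Con (log2 difference -0.10, SE 0.133, adjusted p = 0.77). The labels do not say which exons are floxed, counts per gene cannot show the loss of single exons, and genotype and cohort cannot be told apart, so the groups are named here by their labels. No member was called (0.749% of all genes were), and none passed at an adjusted p under 0.05 of any size (1.66% of all genes) by edgeR, where DESeq2 gave 1. At an unadjusted p under 0.05 there were 4 of 9, against 17.3% of all genes, all higher in the libraries labelled Sirt1-KO: *Cacng8* (0.33, adjusted p = 0.058), *Cnih3* (0.63, adjusted p = 0.14), *Cacng5* (0.28, adjusted p = 0.18) and *Cacng3* (0.13, adjusted p = 0.27).

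*Cacng8* had 74.0, 93.8, 94.6 and 88.1 CPM in the libraries labelled Sirt1-KO and 72.3, 68.6, 66.0 and 72.0 in D1 Con, the 1 member whose groups did not overlap, against 9.53% of all genes. *Cnih3* had 61.9, 83.7, 86.7 and 42.8 CPM against 32.3, 54.7, 42.5 and 48.3. The cortical marker sum was 1286, 1505, 1619 and 863 CPM in the same libraries and 386, 1055, 731 and 715 in D1 Con, so the *Cnih3* values followed the order of the sum within the first group. With that sum as a covariate the differences were -0.045 for *Cnih3*, 0.33 (adjusted p = 0.23) for *Cacng8*, 0.14 for *Cacng5* and 0.24 for *Cacng3*. That of *Cacng4* went from -0.21 to 0.16 (adjusted p = 0.72). The sums of the groups overlapped only through Sirt1-KO 5 (863 CPM) and D1 Con 2 (1055 CPM). This covariate therefore cannot be fully told apart from the label. The MSN marker sum was 2618 to 3719 CPM against 3436 to 4455.

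Replicate 5 had the lowest mean correlation with the other libraries labelled Sirt1-KO, 0.987, where replicates 1, 3 and 4 had 0.990 to 0.991. *Cacng4* was 33.7 CPM in it but 20.8, 19.6 and 18.7 in replicates 1, 3 and 4, against 29.5, 24.8, 25.3 and 27.2 in D1 Con. *Cacng5* was 22.5 CPM in it and 25.2, 28.8 and 32.2 in the others, against 22.9, 22.6, 23.2 and 20.9. Without replicate 5, 4 members (*Cacng4*, *Cacng5*, *Cacng8* and *Cnih3*) passed at an adjusted p under 0.05 in place of 0, against 7.41% of all genes in that fit, and 1 (*Cnih3*) was called, against 2.8%. In the same setting 5 (*Cacng2*, *Cacng4*, *Cacng5*, *Cacng8* and *Cnih3*) did not overlap, against 19.9% of all genes. *Cnih2* (0.07, 95% interval -0.07 to 0.22) and *Gsg1l* (-0.01, -0.14 to 0.13) were close to D1 Con. Of the pore subunits *Gria4* was lower (-0.30, adjusted p = 0.035), *Gria3* had 0.30 (adjusted p = 0.20), and *Gria1* and *Gria2* had 0.02 and 0.11.

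**Figure D5:**
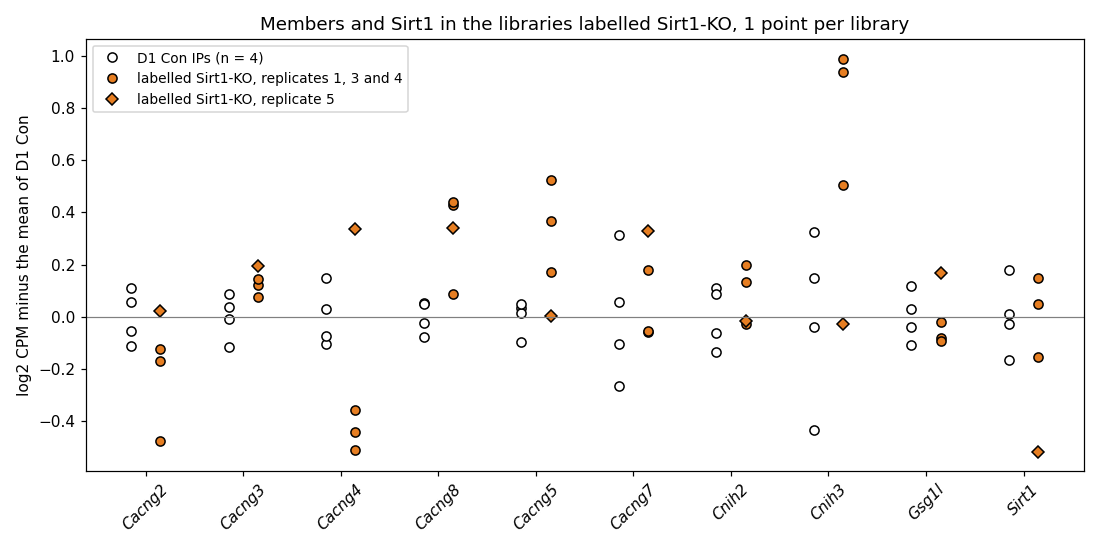
Log2 CPM of each member and of *Sirt1* minus the mean of D1 Con, 1 point per library, open for D1 Con and orange for the libraries labelled Sirt1-KO, with a diamond for replicate 5. *Cacng8* is the member whose orange points all lie above the open ones, and the diamond lies apart for *Cacng4* and *Cnih3*.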

How the data were processed

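RNA-seq libraries of RiboTag IPs and inputs of the NAc were used (50 libraries, each of 2 pooled mice, in 2 tables), so p-values measure the spread between such pools. The deposited values are whole-number counts per gene symbol that the authors made, per the labels, with cutadapt, STAR (mm10) and HTSeq; versions and the strand setting are not given in the sources used here. The 5 entries naming no gene held 18.0 to 28.3% of reads in IPs, 35.9 to 40.0% in inputs and 19.2 to 23.8% in Sirt1-KO libraries and were left out. The D1 Con columns recur unchanged in the second table, where 5 symbols listed 2 times were taken once; 2 columns without a sample description (D1 Con 5 and D1 Res 5) were not used. Libraries were run in sets whose assignment is not given. No 2 replicates agreed within sampling noise (chi-square per gene 3.51 to 98.7 over 76 pairs).

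From the counts, edgeR 4.0.16 (R 4.3.3, limma 3.58.1) gave TMM factors, CPM and quasi-likelihood F tests, with DESeq2 1.42.0 as an alternative; figures used Python 3.11.15 and matplotlib 3.10.9. Genes were kept by filterByExpr (minimum count 10, total 15): 14224 in the IP model, 15404 in that of IPs and inputs, 15063 in that of inputs (line plus stress) and 13626 in that of D1 Con and Sirt1-KO. Adjustment was by Benjamini-Hochberg over all genes tested. Following the study, D1-IPs against D2-IPs were called at a fold over 1.5 and adjusted p under 0.05 and stress differences at unadjusted p under 0.05. The first rule was also used here for fractions, lines of inputs and Sirt1-KO. Scripts were tested on simulated data. All 9 members and the 4 pore subunits are named; of the other lists at most 3 genes of lowest p per comparison, apart from those in a count of 5 or fewer; some genes of these lists are not reported here by name. The members and lists were chosen with earlier results of these data known. IP and input of the same number and group are fractions of 1 homogenate per the labels, which pairs them; their deviations had a median r of 0.03, and 3 of 18 pairs exceeded 0.1. Alternatives were size factors, filters, DESeq2, blocks, fewer libraries and each library left out.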

Additional observations from a re-analysis of the deposited data

Results flagged for a closer look

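*Cnih2* in D2 Con IPs was 120.0 CPM in replicate 4, while the other 4 libraries lay between 128 and 131, a gap of 0.756 of the group's range on the log2 CPM scale. On that scale it was the single library past the criterion in 63 tests of a group and gene, where chance alone gives about 1 in 20. On the CPM scale, tried after the data were seen, 2 were past it, the other being *Cacng4* in Sirt1-KO 5 (gap 0.858, and 0.816 on the log2 CPM scale).

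The enrichment of IP over input differed between the D1 and D2 lines for 4 members by the test of the difference itself (edgeR, adjusted over 15404 genes): *Cnih3* 1.31, *Cacng4* -0.52, *Cacng5* -0.35 and *Gsg1l* -0.28 on the log2 scale. With the cortical marker sum as a covariate, these were 0.31 for *Cnih3* (adjusted p = 0.17), -0.40 for *Cacng4*, -0.58 for *Cacng5* and -0.42 for *Gsg1l*.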

How the results depend on the processing

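*Cnih3*, *Cacng4*, *Cacng5* and *Gsg1l* kept their sign and adjusted p under 0.05 between D1-IPs and D2-IPs in 28 of 28 fits without a library, with 0.99 to 1.10 for *Cnih3*. The log2 cortical marker sum as a covariate, added after the data were seen, moved the most results. It left 0 of 9 members called between D1-IPs and D2-IPs in the mean, Con, Res and Sus comparisons in place of 1, 2 in place of 4 at an adjusted p under 0.05 in Res, 4 in place of 2 between stress groups, 2 in place of 4 between D1-IPs and D1-inputs and 0 in place of 1 for the difference between the lines, and it reversed the D2-IP to D2-input difference of *Cnih3* (to 0.093) and *Cnih2* (to 0.045). The call of *Cacng8* between D1-IPs and D1-inputs held in 5 of 7 alternatives. Its lowest log2 value was 0.56, short of 1.5-fold, and with the covariate it was 0.57. The number between stress groups was 1 with a mean of at least 50 counts and 0 with adjusted p. The number at an adjusted p under 0.05 for Sirt1-KO was 1 with no filter on low counts and 1 with DESeq2. The causes were not tested.

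With 1 library left out, the number of members between stress groups ran from 1 to 4 (4 without D1 Sus 5 or D2 Res 5, and 1 without D1 Con 2, D1 Res 2, D1 Res 4, D1 Sus 1, D1 Sus 4, D2 Con 2, D2 Con 5 or D2 Sus 1). The number whose stress difference differed between lines ran from 0 to 1 (1 without D1 Con 1, D1 Con 4, D1 Res 3, D2 Con 1, D2 Con 2, D2 Res 4 or D2 Res 5), and that between stress groups in inputs from 0 to 3 (1 without D2 Res 3, 3 without D2 Sus 3). For Sirt1-KO, members called ran from 0 to 1 (1 without Sirt1-KO 5) and those at an adjusted p under 0.05 from 0 to 4 (1 without Sirt1-KO 1, 4 without Sirt1-KO 5). Those at an adjusted p under 0.05 between D1 Res and D2 Res ran from 2 to 4 (2 without D1 Res 1). *Gsg1l* in Sus against Con lost p under 0.05 in 8 of 28 such fits in D1-IPs and 2 of 28 in D2-IPs, and the mean of the lines kept it in 28 of 28. The D2-IP to D2-input difference of *Cnih3* fell under 1.5-fold in 9 of 24, and that of *Cnih2* lost its adjusted p in 14 of 24.

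By the labels, replicate numbers other than those of a homogenate do not pair the libraries. In the data, 3 of 12 same-numbered pairs of D1-IPs and 9 of 15 of D2-IPs correlated over 0.1. Their median r was 0.066 and 0.10, against -0.0094 and -0.028 for pairs of unlike numbers. Between Sirt1-KO and D1 Con r was -0.008 to 0.077. Whether a replicate number stands for a shared batch was not tested. With the number as a block, members between stress groups went from 2 to 3, members whose stress difference differed between lines from 0 to 1, members called for Sirt1-KO from 0 to 1 and those at an adjusted p under 0.05 from 0 to 4 (over the 6 libraries that share a number, so that Sirt1-KO 5 and D1 Con 2 were left out in the same step as the block was added), and *Gsg1l* in D1 Sus against Con no longer had p under 0.05. With the homogenate as a block, the D2-IP to D2-input difference of *Cnih2* had adjusted p = 0.12, that of the D1 line passed at an adjusted p under 0.05 (9 of 9 members in place of 8), and the changes of *Cnih3* and *Cacng5* are as given above. No other call changed under that block.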
